A study of Mus musculus with 4 samples.

Results

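The route by which calcium passes from the endoplasmic reticulum into mitochondria was examined in mouse gastrocnemius, the large calf muscle, through 8 genes chosen by name: the uniporter genes Mcu and Micu2, the outer membrane channel genes Vdac1, Vdac2 and Vdac3, and the inositol trisphosphate (IP3) receptor genes Itpr1, Itpr2 and Itpr3. Each of the 8 had exactly 1 row of its own in a deposited table of 25833 rows, and all 8 were among the 14134 rows that the authors tested. The table compares C57BL/6J wild-type mice (WT), which served as controls, with mice in which Fundc1 was knocked out in muscle only (Fundc1-mKO, mKO below). Mice of both groups were 8 weeks old. Each group had 2 libraries, labelled as biological replicates. The knockout is muscle-specific, so other cell types of the tissue keep the gene, and the labels used here do not name the promoter that drove the deletion. The table gives 1 FPKM (fragments scaled to transcript length and library size) per gene and group with the authors' interval, so values of single animals, the spread between them and the depth of each library are not known here.

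IP3 receptors are channels of the endoplasmic reticulum that open when IP3 binds and release stored calcium. At contacts between that membrane and mitochondria, the released calcium crosses the outer mitochondrial membrane through voltage-dependent anion channels (VDACs) and the inner membrane through the uniporter, whose pore is MCU and whose opening is set by MICU proteins that sense calcium outside the inner membrane. FUNDC1 is an outer mitochondrial membrane protein known as a mitophagy receptor, and in mouse heart muscle cells it is known to bind the receptor encoded by Itpr2 at such contacts. In skeletal muscle most calcium for contraction leaves the sarcoplasmic reticulum through a different channel, the ryanodine receptor, while the uniporter links contraction to mitochondrial energy supply.

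Fundc1, the targeted gene, was at 20.1 FPKM in WT (interval 16.3 to 23.8) and at 4.23 FPKM in mKO (interval 3.15 to 5.31). The intervals did not overlap, and Fundc1 fell by 2.25 on the log2 scale (SE 0.23, derived from the authors' intervals; q = 0.00338 in the authors' deposited table). The tissue label was set against 10 fibre markers. Acta1, Ckm, Ttn, Myh4 and Tnnt3 were marked HIDATA, the authors' flag for an excess of fragments, and gave no level, Des had no row of its own, and the other 4 (Myh1, Myh2, Myh7 and Mb) had a summed level of 3123 FPKM in WT, against 2684 in mKO. All 4 were at lower FPKM in mKO and 1 passed q, Myh2, the fast IIa myosin gene, which fell from 487 to 384 FPKM (q = 0.00338 in the authors' deposited table).

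None of the 8 calcium uptake and contact genes rose or fell in mKO muscle. A gene is said here to rise or fall only where the authors' deposited table gives a q under 0.05, a threshold passed by 448 of the 14134 tested rows (3.17%). At an unadjusted p below 0.05 there, 1 of the 8 passed, Itpr1, beside 13.7% of all tested rows. When the authors' test statistic was read against a normal distribution with Benjamini-Hochberg adjustment, 0 of the 8 and 0.198% of tested rows passed. The authors' intervals of both groups overlapped for all 8, whereas they lay apart in 0.715% of tested rows. Of the 8 genes, 4 were at higher FPKM in mKO (the VDAC genes and Itpr1) and 4 at lower FPKM (Mcu, Micu2, Itpr2 and Itpr3). The median log2 ratio of FPKM + 1 was -0.03 over the 8 and -0.02 over 10509 tested single-gene rows with a mean FPKM of at least 1. Of those rows, 56.5% were at lower FPKM in mKO.

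**Figure D1:**
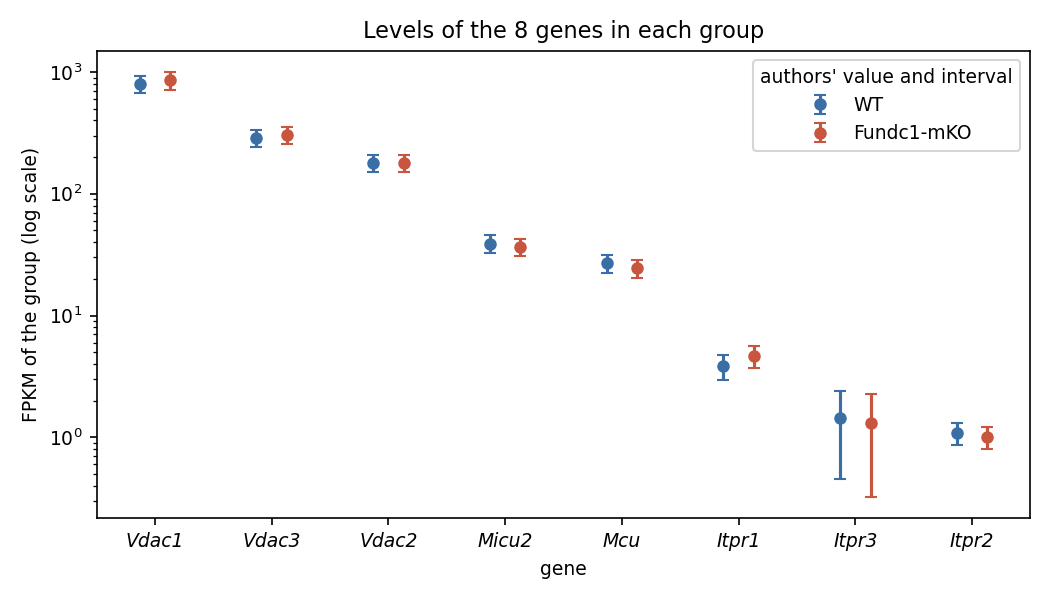
FPKM of each gene (log axis) in WT and Fundc1-mKO, with points at the authors' group value and bars at the authors' interval. The levels run from 801 FPKM for Vdac1 to 1.09 FPKM for Itpr2 in WT, and within each gene the bars of both groups overlap.

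The FPKM values of the 8 genes stood in the same order in both groups. FPKM is scaled to transcript length, so levels of different genes can be set side by side. In WT the order from high to low was Vdac1, Vdac3, Vdac2, Micu2, Mcu, Itpr1, Itpr3 and Itpr2, and it was the same in mKO. In each group, neighbours in this order had intervals that lay apart, except Itpr3 and Itpr2, whose intervals overlapped and which are therefore not ordered. The level of Vdac1 was 733 times that of Itpr2 in WT and 849 times in mKO. By mean level, Vdac1 stood above 99.2% of the tested rows, Mcu above 81.8%, Itpr1 above 47.1% and Itpr2 above 21.5%.

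Promoter windows are shown for the most abundant of the 8 genes, the pore gene of the uniporter, its gatekeeper gene and Itpr2, the weakly expressed receptor gene whose product is known to bind FUNDC1, so that high and low levels are both shown. RefSeq windows (GRCm38.p6, the assembly of mm10) were matched for 5 of the 8 genes: Mcu, Micu2, Vdac1 (with 2 windows), Itpr2 and Itpr3. Each sequence gives the 250 bases before the transcript start, 5′ to 3′ on the gene's strand, with capitals at matches to any of 7 motifs. The Vdac1 window lies on the plus strand at chr11:52360601-52360850, and the other 3 lie on the minus strand, Mcu at chr10:59616693-59616942, Micu2 at chr14:57999263-57999512 and Itpr2 at chr6:146502224-146502473. The deposited Vdac1 row starts further downstream, at chr11:52361115, and the second Vdac1 window lies within that row.
Vdac1: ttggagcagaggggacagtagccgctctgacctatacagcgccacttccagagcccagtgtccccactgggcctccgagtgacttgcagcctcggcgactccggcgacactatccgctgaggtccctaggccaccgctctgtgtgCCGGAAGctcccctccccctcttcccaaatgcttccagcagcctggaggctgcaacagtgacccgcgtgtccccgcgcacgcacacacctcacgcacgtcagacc
Mcu: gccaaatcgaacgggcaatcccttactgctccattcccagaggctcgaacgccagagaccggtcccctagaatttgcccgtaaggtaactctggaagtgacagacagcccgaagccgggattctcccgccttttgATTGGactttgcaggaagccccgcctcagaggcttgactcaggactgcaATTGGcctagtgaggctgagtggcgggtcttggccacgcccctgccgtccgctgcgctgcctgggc
Micu2: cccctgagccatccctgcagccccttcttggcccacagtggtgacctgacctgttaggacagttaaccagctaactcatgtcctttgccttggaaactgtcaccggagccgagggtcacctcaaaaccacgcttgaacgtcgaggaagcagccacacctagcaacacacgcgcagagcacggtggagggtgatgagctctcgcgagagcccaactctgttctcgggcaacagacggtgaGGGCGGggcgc
Itpr2: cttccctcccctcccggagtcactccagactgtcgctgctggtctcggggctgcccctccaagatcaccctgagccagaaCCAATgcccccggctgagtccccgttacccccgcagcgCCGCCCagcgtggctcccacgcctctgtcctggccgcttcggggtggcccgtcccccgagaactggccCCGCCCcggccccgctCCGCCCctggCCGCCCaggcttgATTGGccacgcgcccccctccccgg

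The capitals mark an ETS motif (CCGGAAG) in the Vdac1 window, 2 CCAAT boxes (CCAAT) in the Mcu window, a GC box (GGGCGG) in the Micu2 window, and 4 GC boxes and 2 CCAAT boxes in the Itpr2 window. Both strands were searched, and no marked matches overlapped. Of 32851 windows of the same length in the table, 6.91% held the ETS motif, 33.8% a CCAAT box and 32.7% a GC box. The second Vdac1 window held 3 GC boxes and the Itpr3 window held 1. No window of these 5 genes held the letters of the NRF1 half-site (TGCGCA, in 6.43% of all windows), the oestrogen-related receptor motif (TNAAGGTCA, 1.14%), the cAMP response element (TGACGTCA, 1.55%) or a TATA box (TATAAA, 12.4%). The GC share was 60.8% for Mcu, 60.4% for Micu2, 65.2% for the printed Vdac1 window and 74.4% for Itpr2, beside a median of 52.4% over all windows.

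Both uniporter members were at slightly lower FPKM in mKO. Mcu encodes the pore-forming subunit and lies on the minus strand at chr10:59446984-59616692 in mm10. Its level was 26.9 FPKM in WT (interval 22.4 to 31.4) and 24.5 FPKM in mKO (interval 20.4 to 28.6). The log2 ratio of mKO over WT was -0.13 (SE 0.17), with p = 0.111 and q = 0.532 in the authors' deposited table. Taken as 2 SE on each side, the ratio of mKO over WT lay between 0.720 and 1.15, a range that includes 1. Micu2, a calcium-sensing gatekeeper of the pore, lies on the minus strand at chr14:57916280-57999262. It was at 39.0 FPKM in WT (interval 32.5 to 45.4) and at 36.6 FPKM in mKO (interval 30.5 to 42.7). Its log2 ratio was -0.09 (SE 0.17), and its q was 0.764 in the authors' deposited table. The ratio of Micu2 to Mcu was 1.45 in WT and 1.49 in mKO.

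No rise or fall was called among 9 other genes of uniporter regulation and mitochondrial calcium exchange. Only 2.92% of all tested single-gene rows with a mean FPKM of at least 1 passed q. A count of 0 in so short a list lies near that share. All 9 were tested, 5 were at higher and 4 at lower FPKM in mKO, and by the authors' deposited table, none passed q and 0 had an unadjusted p below 0.05. Micu3, a further MICU protein, was at 5.33 FPKM in WT and at 6.06 in mKO (q = 0.433 in the authors' deposited table) and had the largest log2 ratio of FPKM + 1 in the list, 0.16. Mcub, a paralogue of Mcu that acts as a dominant-negative pore subunit and is listed under the older symbol Ccdc109b, was at 1.72 FPKM in WT and at 1.88 in mKO. The level of Mcu was 15.7 times that of Mcub in WT and 13.1 times in mKO. Smdt1, which encodes the small essential subunit EMRE, had the highest level of the list, 262 FPKM in WT and 286 in mKO, or 9.73 and 11.7 times the level of Mcu. Letm1, an inner membrane protein of ion exchange, had the lowest ratio of FPKM + 1, at 22.1 FPKM in WT and at 20.6 in mKO. Slc8b1, the sodium-calcium exchanger that lets calcium out of mitochondria, was at 4.57 FPKM in WT and at 4.68 in mKO.

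The VDAC genes were the abundant part of the route, and all 3 had overlapping intervals between groups. Vdac1, the main outer membrane channel for metabolites and calcium, lies on the plus strand at chr11:52361115-52389399. It was at 801 FPKM in WT (interval 667 to 935) and at 857 FPKM in mKO (interval 714 to 999). The log2 ratio was 0.10 (SE 0.17; q = 0.743 in the authors' deposited table). Vdac2, the isoform known to hold the cell death protein BAK at the membrane, was at 179.7 FPKM in WT (interval 151 to 208) and at 180.2 FPKM in mKO (interval 151 to 209). Of the 8 genes it had the smallest difference, a log2 ratio of 0.00 (SE 0.16; q = 0.997 in the authors' deposited table). Its row spans chr14:21831561-21848910 together with Comtd1, a gene on the opposite strand that has its own row. GENCODE places 25 shared exon bases between both genes, and Comtd1 was at 2.39 FPKM in WT and at 2.46 in mKO. Vdac3, the third isoform, on the minus strand at chr8:22577075-22593813, was at 286 FPKM in WT (interval 241 to 332) and at 302 FPKM in mKO (interval 254 to 350). Its log2 ratio was 0.08 (SE 0.16; q = 0.816 in the authors' deposited table).

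The proportions of the VDAC genes were alike in both groups. Their summed level was 1267 FPKM in WT and 1339 in mKO. Vdac1 made up 63.2% of it in WT and 64.0% in mKO, Vdac3 22.6% in each, and Vdac2 14.2% and 13.5%. With Vdac1 alone moved to the bounds of its interval, its share was 58.9% to 66.7% in WT and 59.7% to 67.4% in mKO, so the ranges overlapped. The coding sequences of the 3 genes were 68.4% to 73.7% identical where aligned, and no stretch of 50 bases was shared between them in the GENCODE transcripts compared. Copies elsewhere do share such stretches: 47.5% of the 50-base windows of the Vdac3 transcript with the longest coding sequence occur in other transcripts, mainly those of the pseudogene Vdac3-ps1, against 10.3% for Vdac2 and 4.39% for Vdac1. The Vdac1 transcript compared was 891 bases long, 888 of them coding, while the gene has 2620 exonic bases. Its noncoding exon bases were therefore hardly covered, and its share may differ over the whole gene. The sources used here do not state the treatment of reads with several matches. The level of Vdac3 is therefore uncertain beyond its interval.

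**Figure D2:**
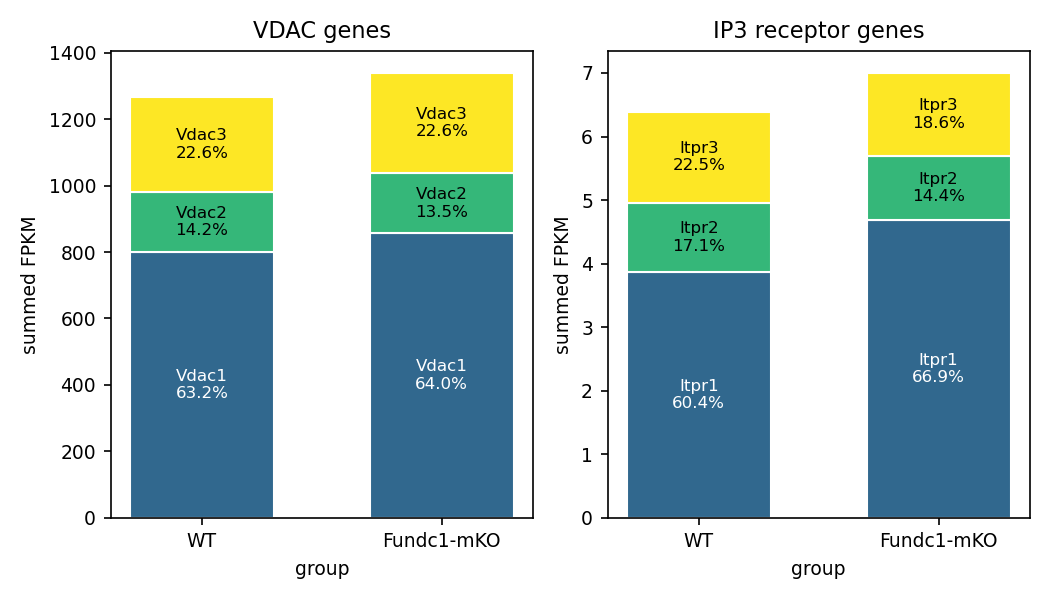
Summed FPKM of the VDAC genes (left) and of the IP3 receptor genes (right) in each group, with each gene's share printed in its block and no error drawn. Vdac1 makes up 63.2% and 64.0% of its family, and Itpr1 60.4% and 66.9% of its own.

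No rise or fall was called among 13 genes of VDAC partners and other outer membrane proteins. That count lies near the 2.92% called over all tested single-gene rows at the same minimum level. Of 15 listed genes, these 13 were tested with a mean FPKM of at least 1, of which 6 were at higher and 7 at lower FPKM in mKO, and none passed q. Slc25a4, the main adenine nucleotide carrier of muscle, was the most abundant of the 13, at 3594 FPKM in WT and at 3676 in mKO, or 4.49 and 4.29 times the level of Vdac1. Mtx2, a metaxin of the outer membrane assembly machinery, was at 25.9 FPKM in WT and at 22.3 in mKO (p = 0.0249 and q = 0.254 in the authors' deposited table). That was the lowest ratio of FPKM + 1 among the 13. Ppif, which encodes cyclophilin D, a regulator of the permeability transition, had the highest on that scale, at 18.4 FPKM in WT and at 19.2 in mKO. Bid, a cell death gene, was below the minimum level, at 0.765 FPKM in WT and at 0.518 in mKO (q = 0.174 beside p = 0.0128 in the authors' deposited table).

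The IP3 receptor genes were weakly expressed, and Itpr1 had the largest difference of the 8 genes. Itpr1, on the plus strand at chr6:108213096-108551116, was at 3.86 FPKM in WT (interval 2.97 to 4.76) and at 4.69 FPKM in mKO (interval 3.73 to 5.64). The higher mKO value lay within the WT interval, and the intervals overlapped. Exon bases of Itpr1 overlap genes on the opposite strand, 181 with Gm44101 and 108 with Gm44040, and strand-specific counting is not stated. The log2 ratio was 0.28 (SE 0.22), with p = 0.0127 and q = 0.173 in the authors' deposited table, so Itpr1 did not pass. Taken as 2 SE on each side, the ratio of mKO over WT lay between 0.891 and 1.65. The authors' p is smaller than the test statistic of 1.25 gives when read against a normal distribution, which is p = 0.211. The same holds across the table: rows with an authors' p between 0.04 and 0.06 had a median absolute statistic of 0.981, where a normal distribution puts 1.96.

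Itpr2, the receptor known as a partner of FUNDC1 in heart, was weakly expressed, and its interval overlapped that of Itpr3 in both groups. It lies on the minus strand at chr6:146108299-146502223 and was at 1.09 FPKM in WT (interval 0.868 to 1.32) and at 1.01 FPKM in mKO (interval 0.799 to 1.22). Its log2 ratio was -0.12 (SE 0.21; q = 0.751 in the authors' deposited table), and the ratio lay between 0.689 and 1.24 at 2 SE on each side. Itpr3, on the plus strand at chr17:27057304-27122516, was at 1.44 FPKM in WT (interval 0.455 to 2.42) and at 1.31 FPKM in mKO (interval 0.326 to 2.28). Its interval reached 68.4% to each side of the value in WT and 75.0% in mKO, the widest of the 8. The log2 ratio was -0.14 (SE 0.73; q = 0.945 in the authors' deposited table). Ratios from 0.329 to 2.51 lay within 2 SE, a range that includes changes of more than 2-fold in either direction. Its row had 4 start sites, the most of the 8, and 233 of its exon bases overlap the antisense gene Itpr3os, while strand-specific counting is not stated.

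Itpr1 made up the largest share of the receptor genes in both groups. The summed level of the family was 6.39 FPKM in WT and 6.999 in mKO. The share of Itpr1 was 60.4% in WT and 66.9% in mKO. With Itpr1 alone moved to the bounds of its interval, the ranges were 54.0% to 65.3% and 61.7% to 70.9%, which overlap. The wide interval of Itpr3 is not included in these ranges, so the shares are less certain than they show. Itpr1 stood at 3.53 times Itpr2 in WT and 4.65 times in mKO, a pair of values given without a test. The receptor coding sequences were 71.4% to 72.3% identical where aligned, and no 50-base stretch was shared between the family members compared. For comparison, the ryanodine receptor gene Ryr1 was listed at 465 FPKM in WT, 120 times Itpr1. Its whole row was marked HIDATA and not tested, so this WT value is uncertain and mKO has no usable value.

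**Figure D3:**
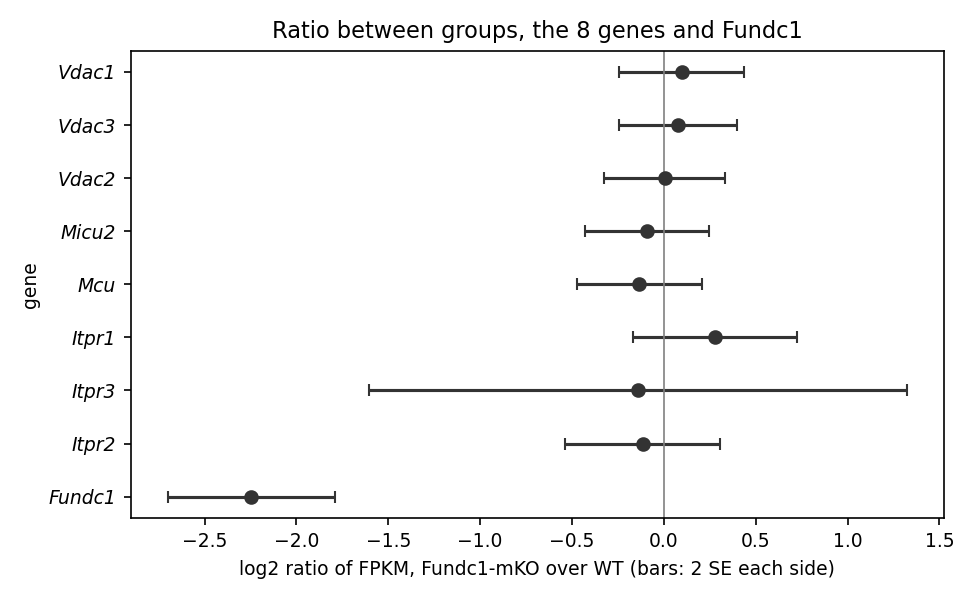
log2 ratio of FPKM, Fundc1-mKO over WT, for the 8 genes and Fundc1, with bars of 2 SE to each side derived from the authors' intervals. The bars of all 8 genes cross 0 and that of Itpr3 is the longest, while Fundc1 lies at -2.25.

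No rise or fall was called among 19 genes that make IP3, remove it or regulate its receptors. That count lies near the 2.92% called over all tested single-gene rows at the same minimum level. Of 25 listed genes, these 19 were tested with a mean FPKM of at least 1, of which 11 were at higher and 8 at lower FPKM in mKO. By the authors' deposited table, none of them passed q and 0 had an unadjusted p below 0.05. Inpp5a, a phosphatase that degrades IP3, was the most abundant, at 58.1 FPKM in WT and at 55.4 in mKO. Itpkc, a kinase that phosphorylates IP3, had the lowest ratio of FPKM + 1, at 2.23 FPKM in WT and at 1.85 in mKO (q = 0.724 in the authors' deposited table). Mrvi1, whose protein inhibits calcium release through the type encoded by Itpr1 in smooth muscle, had the highest ratio of FPKM + 1, at 1.15 FPKM in WT and at 1.31 in mKO. Gnaq, the G protein subunit that activates phospholipase C beta, was at 5.07 FPKM in WT and at 5.10 in mKO. Below the minimum level, the phospholipase C gene Plce1 was at 0.722 FPKM in WT and at 0.563 in mKO (p = 0.00505 and q = 0.101 in the authors' deposited table), and Itprip, which encodes an IP3 receptor-interacting protein, was at 0.427 and 0.323 FPKM (p = 0.0442 and q = 0.343).

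For 17 genes of contact between the endoplasmic reticulum and mitochondria, no rise or fall was called either. That count lies near the 2.92% called over all tested single-gene rows with a mean FPKM of at least 1. Of 18 listed genes these 17 were tested, 6 at higher and 11 at lower FPKM in mKO, and by the authors' deposited table, none passed q and 0 had an unadjusted p below 0.05. The list's median log2 ratio of FPKM + 1 was -0.04, beside -0.02 over all tested single-gene rows at that level. The share at lower FPKM in mKO was 64.7% in the list and 56.5% over those rows. Hspa9, the mitochondrial chaperone GRP75 that links IP3 receptors to VDAC1, was the most abundant, at 196 FPKM in WT and at 190 in mKO (q = 0.941 in the authors' deposited table). Mfn2, a mitofusin found on both membranes, was at 148 FPKM in WT and at 151 in mKO. Canx, the endoplasmic reticulum chaperone calnexin, had the lowest ratio of FPKM + 1, at 57.7 FPKM in WT and at 51.9 in mKO (p = 0.0584 and q = 0.398 in the authors' deposited table). Pacs2, a sorting protein needed for contact, had the highest ratio of FPKM + 1, at 13.2 FPKM in WT and at 14.3 in mKO. Rmdn3, which encodes the outer membrane tether PTPIP51, was at 4.001 FPKM in WT and at 3.58 in mKO, and its partner gene Vapb was at 44.6 and 45.2 FPKM.

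Of 16 genes of the sarcoplasmic reticulum store, 12 were tested, 5 at higher and 7 at lower FPKM in mKO, and none passed q. Casq2, a calcium-binding calsequestrin typical of slow and cardiac muscle, was at 46.5 FPKM in WT and at 41.1 in mKO (p = 0.0273 and q = 0.265 in the authors' deposited table). Its fast-muscle counterpart Casq1 was the most abundant of these 12 at 888 and 848 FPKM, while Atp2a1, the calcium pump of fast fibres, was marked HIDATA and gave no level. Orai1, the plasma membrane channel of store-operated entry, had the highest ratio of FPKM + 1 among them, at 20.2 and 20.7 FPKM. Over the 5 lists together, 70 of 83 genes were tested with a mean FPKM of at least 1, 0 passed q and 2 (Mtx2 and Casq2) had an unadjusted p below 0.05, or 2.86%. Among all tested single-gene rows at that level, the authors' deposited table has 2.92% past q and 11% with an unadjusted p below 0.05. Of the same rows, 56.5% were at lower FPKM in mKO.

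**Figure D4:**
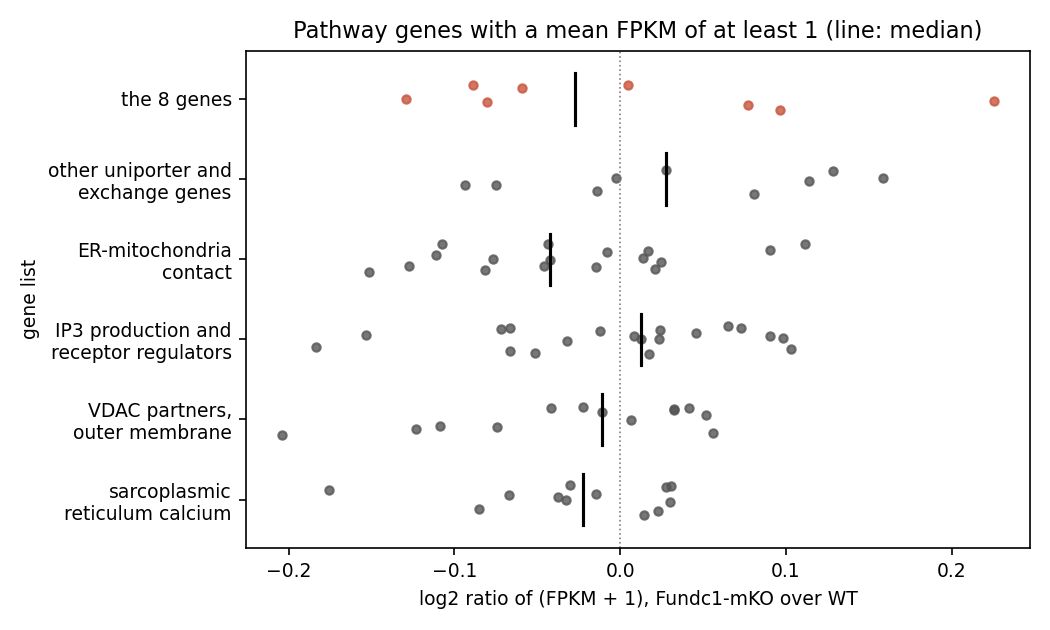
log2 ratio of FPKM + 1, Fundc1-mKO over WT, for the 8 genes and for the tested genes of each list with a mean FPKM of at least 1; each point is a gene, spread vertically for legibility, and the line is the median. The list medians lie between -0.04 and 0.03, and Itpr1 is the rightmost point at 0.23.

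Differences as small as those of the 8 genes were not called at similar levels in this table. Among 3819 tested single-gene rows within 2-fold of the mean level of Itpr1, 97 passed q, and the smallest difference among them was 1.22-fold. Itpr1 itself differed 1.21-fold. Around Mcu 75 of 2597 rows passed, and the smallest called difference was 1.20-fold, where Mcu differed 1.10-fold. Around Vdac1 7 of 177 rows passed, with 1.22-fold as the smallest, where Vdac1 differed 1.07-fold. The median called difference was larger, 1.39-fold around Itpr1, 1.30-fold around Mcu and 1.28-fold around Vdac1. The smallest called difference comes from a single row, so differences of that size need not be called in general.

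**Figure D5:**
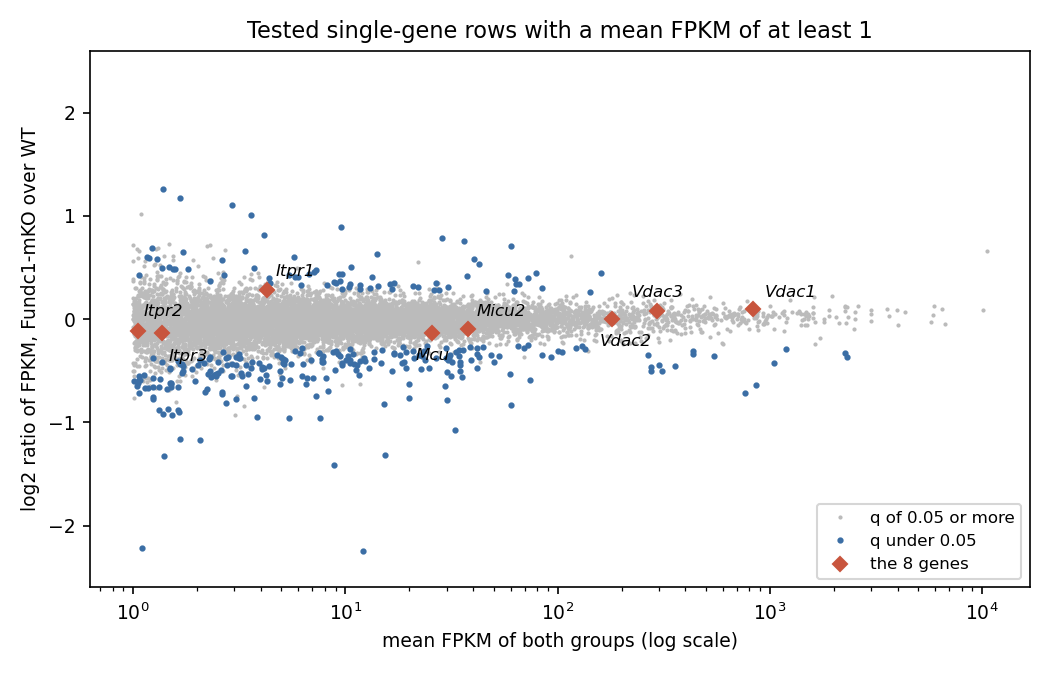
log2 ratio of FPKM, Fundc1-mKO over WT, against the mean FPKM of both groups (log axis) for 10496 tested single-gene rows with a mean FPKM of at least 1 and a value above 0 in both groups; 3 rows lie outside the vertical axis. Diamonds mark the 8 genes, which lie among the grey rows without a q under 0.05, with Itpr1 the highest of the 8.

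The 8 genes are expressed in many cell types, and in bulk tissue fewer cells of a type and less RNA per cell cannot be told apart. Endothelial markers, 6 of 6 tested, summed to 70.4 FPKM in WT and 75.0 in mKO, 5 of them at higher FPKM in mKO and 0 past q. Smooth muscle and mural markers, 6 of 6 tested, summed to 116 and 124 FPKM, with 4 at higher FPKM in mKO and 0 past q. Macrophage markers summed to 66.7 FPKM in WT and 45.1 in mKO and 4 of 5 fell, fibroblast markers summed to 226 and 202 FPKM and 3 of 5 fell, and epidermal markers summed to 5.78 and 1.70 FPKM and 2 of 4 fell. Granulocyte markers summed to 193 and 265 FPKM and 4 of 4 rose, and adipocyte markers to 804 and 916 FPKM, where Retn rose among 4. By the normal reading of the statistic, only Postn and Krt10 of all called markers passed, so Myh2, Retn and the granulocyte markers did not. The authors' intervals of both groups overlapped for the granulocyte markers and Retn, and also for Myh2, Adgre1, Ctss and Dmkn, which fell. They lay apart for the other called markers, Cd68, Mrc1, Col1a1, Col3a1, Postn and Krt10. Over all tested rows, 3.17% passed q. Schwann cell markers summed to 40.9 and 37.8 FPKM with 0 of 4 past q. Outside the fibre list, no marker was listed at 0 in either group. Fibre markers, given above, were at lower FPKM in mKO in 4 of 4 with a tested value. The part of these cell types in the values of Itpr1 and the other 7 genes was not tested.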

How the data were processed

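RNA of 4 gastrocnemius muscles was sequenced. Cufflinks 2.2.1, TopHat2 2.0.14, FastQC 0.11.3, bcl2fastq and mm10 appear in the submitters' processing notes, without roles. Per the file headers, the deposited table gives FPKM per gene and group with an interval, a test score (the test statistic), a p-value and a q-value, computed by the authors over all tested rows. Annotation, settings and depth: not given in the sources used here. P-values cover only these samples. The intended test was the authors' own, because values per library were not analysed here.

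Log2 ratios were computed from FPKM. Each half-width of an interval was read as 2 SD. The resulting ratio over its SE lay within 1% of the authors' statistic in 99.9% of 14100 rows. Starts in the file lie 1 below RefSeq, so 1 was added. Lists use a pseudocount of 1 and a mean FPKM of at least 1. Named genes are Fundc1, the 8 genes and, from each of 5 lists, any gene past q, the largest and smallest ratio and the highest level; the others named (Mcub, Slc8b1, Gnaq, Mfn2, Rmdn3, Vapb, Comtd1, Ryr1 and those with an unadjusted p under 0.05) were chosen after their values were seen. For 1 gene of the uniporter list, results are not reported here, and the list was counted without it. Similarity of pattern across genes was not computed, since each gene has 2 group values. Genes and lists were chosen with earlier results of these data known. Transcripts and exons are from GENCODE M21. The calculation of the normal reading of the statistic, with Benjamini-Hochberg adjustment, was checked on simulated data with normal errors. That check does not show whether a normal distribution suits these data. Python 3.11.15, pandas 2.3.3, scipy 1.17.1 and Biopython 1.88 were used.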

Additional observations from a re-analysis of the deposited data

How the results depend on the processing

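The count of 0 of 8 genes past q was also 0 at a q under 0.10, at a q under 0.01, by intervals that lay apart and by a normal reading of the statistic with Benjamini-Hochberg adjustment, which passed 0.198% of tested rows. At an unadjusted p under 0.05 it was 1, Itpr1. The log2 ratios of all 8 genes kept their sign with pseudocounts of 0.1 and 1, at equal medians and at equal totals of the groups, and moved by at most 0.06; no gene of the 8 is named in a further row. Equal medians and equal totals each shift log2 ratios by 0.03. The list medians ranged from -0.04 to 0.05 over all settings, and those of the VDAC partner and sarcoplasmic reticulum lists turned from -0.01 to 0.02 and from -0.02 to 0.01 at equal medians. At a mean FPKM of at least 5, the median of the other uniporter genes turned from 0.03 to -0.0025 and that of the contact genes from -0.04 to 0.00. No list gained a gene past q without a minimum or at a minimum of 5. The log2 ratio of Fundc1 was -2.01 with a pseudocount of 1, which understates ratios of low values by construction. No paired analysis was possible because the table gives 1 value per gene and group, and leaving out single replicates was not run for the same reason. The authors' interval, which rests on 2 libraries a group, limits Itpr3 most.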
